A study of Mus musculus with 24 samples.

Results

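Myc and its relatives are transcription factors that act in pairs. Myc, Mycn and Mycl each bind Max, and such a pair sits on the sequence CACGTG, called the E-box, and favours transcription of genes for ribosome production, nucleotide synthesis and cell division. Max also pairs with Mxd1, Mxd3, Mxd4, Mxi1, Mnt and Mga, which occupy the same sequence and recruit repressive complexes, so the balance of partners on Max is a long-studied control of growth in embryonic tissue. In muscle precursors, Myc is known for being switched down as the cells leave the cell cycle.

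The members described here are 8 genes: Myc and Mycn, their shared partner Max, the antagonists Mxd1, Mxd3, Mxd4 and Mxi1, and the large Max partner Mga. They were taken by name from 19351 genes measured, each by 1 probe set that is annotated to that gene alone. The set was chosen by the measured Myc values of these arrays, which were known to be highest at E12.5. Myc is therefore described with no test, and tests are given for the other 7.

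The arrays held RNA from wild-type C57BL/6J mouse embryos, cut by laser from mid-thoracic sections at 3 stages, with 8 arrays per stage. At E11.5 and E12.5 the tissue was the pleuroperitoneal fold, the paired mesenchymal primordium of the diaphragm. At E16.5 it was the diaphragm after muscle had formed, although the sample titles use the fold's name there too. The folds were cut from transverse and the E16.5 diaphragm from sagittal sections, so section plane and the latest stage cannot be told apart. The labels number the samples of a stage and do not say which embryo or litter each came from, so the p-values measure the spread between these samples.

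The tissue labels could be checked against marker genes. The mean of 15 skeletal muscle markers per array lay between 7.95 and 8.86 log2 units at E11.5, between 8.03 and 10.51 at E12.5 and between 11.06 and 11.54 at E16.5. The mean of 11 fold mesenchyme markers lay between 9.27 and 9.64, between 9.11 and 9.49, and between 8.38 and 8.70 at the same stages. Markers of hepatocytes, a liver cell that neither tissue should hold, also moved with stage: their mean lay between 6.95 and 7.29 at E11.5, between 7.88 and 11.87 at E12.5, and between 9.72 and 11.76 at E16.5. At E11.5, 5 of those 11 markers lay below the lower quartile of all genes in most arrays. At E16.5 replicates 1 to 4 stood apart from replicates 5 to 8, with 11.6% of all genes not overlapping between them, and no label accounts for it. Where a member's call was lost with either set alone, that value is given beside it. The same was done where a count above 2 of a list around Myc moved by over 1.5 times with either set alone.

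Levels are log2 intensities of the deposited robust multi-array average, so 1 unit is a doubling of signal. They were compared between stages for 1 gene at a time, since probe sets differ in their response. In bulk tissue, fewer cells expressing a gene and less RNA per cell cannot be told apart. Every member lay above the lower quartile of all genes in all arrays, and above the array's median gene in all arrays but 1 E12.5 array for Mxd3.

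The E-box is the letter string through which this network acts, so the upstream stretches that hold it are shown for the Max network genes that carry 1 in the RefSeq promoter windows (GRCm38.p6, 250 bases before to 50 after each start). The capitals mark the 6 letters CACGTG, searched on both strands, which read the same. Mxd4 is a member, and Mnt, Mlx and Mlxipl are network genes outside the 8: Mnt is a widely expressed antagonist of Myc, and Mlx and Mlxipl form the glucose-responsive arm of the network. Mxd4 lies on chr5:34187899-34187954 (minus strand), Mnt on chr11:74830776-74830831 (plus), Mlx on chr11:101087225-101087280 (plus) and Mlxipl on chr5:135089767-135089822 (plus).
Mxd4: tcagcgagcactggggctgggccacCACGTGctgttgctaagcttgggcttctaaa
Mnt: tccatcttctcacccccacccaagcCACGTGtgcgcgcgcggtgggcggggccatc
Mlx: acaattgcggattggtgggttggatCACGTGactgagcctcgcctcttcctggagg
Mlxipl: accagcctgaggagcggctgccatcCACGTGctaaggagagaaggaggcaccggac

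Of the 8 members, 7 had a promoter listed, and 2 of those 7 held the E-box: Mxd4, and Max, whose match lay after the start. Among the other 7 network genes 3 held it. By comparison, 7.15% of all 32851 promoter windows and 9.52% of the 15436 measured genes with a window did. A match is a string of letters and not a measured binding site.

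Myc, the growth regulator that gives the network its name, had its highest level at E12.5. At E11.5 its lowest, median and highest values were 9.09, 9.39 and 9.64, with a mean of 9.37 ± 0.19 (SD, n = 8). At E12.5 they were 9.75, 9.99 and 10.32, with a mean of 9.99 ± 0.19 (SD, n = 8). At E16.5 they were 8.32, 8.76 and 9.58, with a mean of 8.81 ± 0.36 (SD, n = 8). Every E12.5 array lay above every E11.5 array and above every E16.5 array. The order of levels was therefore E12.5, E11.5 and E16.5, and the neighbours E11.5 and E16.5 overlapped through a single array, E16.5 replicate 8.

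The difference in Myc between E12.5 and E11.5 was 0.62 ± 0.13 on the log2 scale (SE, 1.54-fold), with a 95% interval of 0.36 to 0.88. E16.5 lay 1.18 log2 units under E12.5, a ratio of 0.441 (difference -1.18 ± 0.13, SE). E16.5 minus E11.5 was -0.56 ± 0.13 (SE), a ratio of 0.677. Such a separation of E12.5 from E11.5, with no shared range, was found for 25 genes, or 0.129% of all measured, and Myc was the single member among them. Since Myc was chosen for this pattern, the share is printed as its setting and not as a test.

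**Figure D1:**
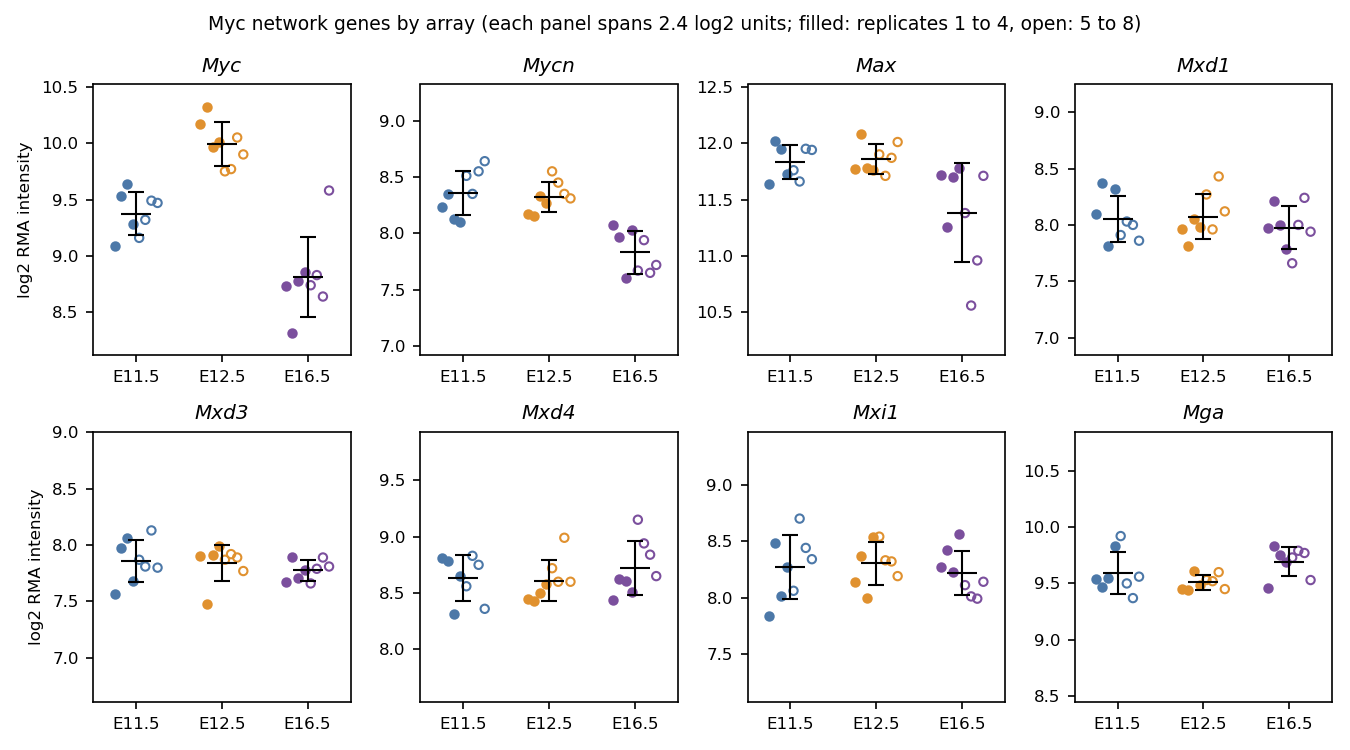
Each panel plots 1 gene over the 24 arrays, with stage on the horizontal axis and the log2 intensity on the vertical axis; filled points are replicates 1 to 4, open points replicates 5 to 8, and the bar is the mean with 1 SD. Myc peaks at E12.5 with 1 high E16.5 array at 9.58. Mycn lies lower at E16.5 without overlap, Max lies lower there with some overlap, and the remaining members overlap between stages.

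Myc at E16.5 was read from 8 arrays of which 1 stood out. Replicate 8 had 9.58, against 8.32 to 8.86 in the other 7, whose mean was 8.70 ± 0.18 (SD, n = 7). That same array had the highest mean of the 18 proliferation markers in its stage (9.87, with 9.68 next), the highest cardiomyocyte mean (7.90, with 7.30 next), the highest erythroid mean of its stage and the lowest skeletal muscle mean (11.06). The part of those cells in its Myc value was not tested. Replicates 1 to 4 averaged 8.67 ± 0.24 and replicates 5 to 8 averaged 8.95 ± 0.43 (SD, n = 4 each).

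Hepatocyte levels varied widely among the E12.5 arrays. The lowest Myc value of that stage, 9.75, came from replicate 5, which had the second lowest hepatocyte mean of 8.02. The highest Myc value, 10.32, came from replicate 2, which also had the highest hepatocyte mean of 11.87, while the second highest, 10.17, came from replicate 1, which had the lowest hepatocyte mean of 7.88. With E12.5 replicates 2 and 3 left out together, the E12.5 minus E11.5 difference was 0.57. With the hepatocyte mean as a covariate it was 0.48. The hepatocyte ranges of E11.5 and E12.5 did not overlap, so that covariate could not be separated from stage. The part of liver cells in the Myc values was not tested. Immediate early genes, which respond quickly to stimulation and among which Myc is sometimes counted, were listed without Myc and gave a mean of 7.61 to 7.77 at E12.5 and 7.56 to 7.78 at E11.5.

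**Figure D2:**
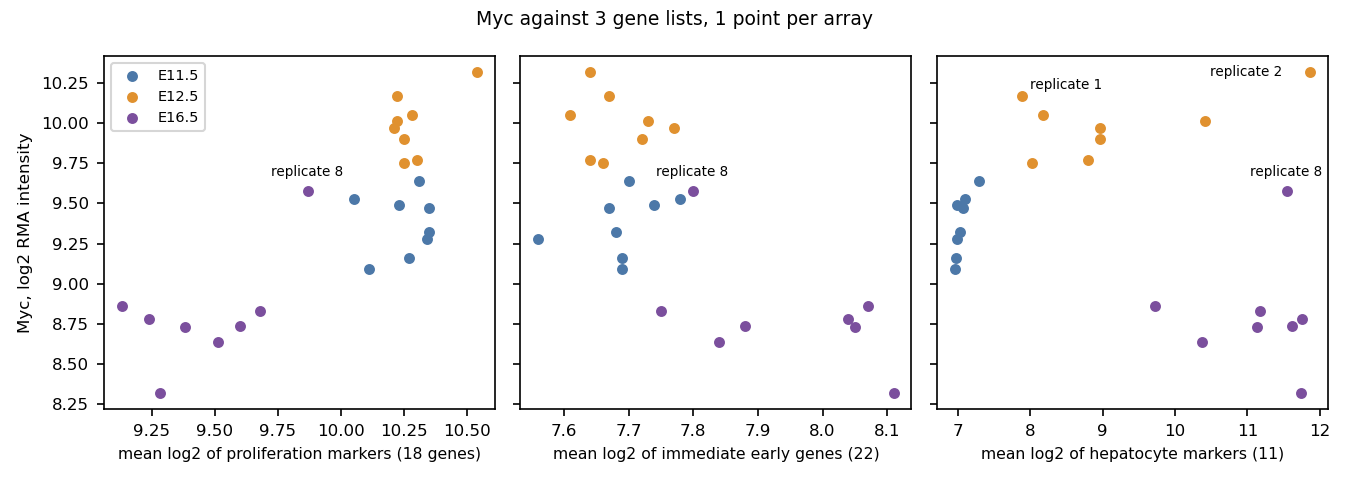
The log2 intensity of Myc (vertical axis) is set against the mean log2 intensity of the proliferation list, the immediate early list and the hepatocyte list (horizontal axes), 1 point per array and 1 colour per stage. The E12.5 points span 9.75 to 10.32 in Myc and 7.88 to 11.87 in the hepatocyte mean, and E16.5 replicate 8 sits apart from its stage in Myc and in proliferation.

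Mycn, the family member best known from neural and other progenitor cells of the embryo, did not share the E12.5 maximum. Its lowest, median and highest values were 8.10, 8.35 and 8.64 at E11.5, 8.15, 8.32 and 8.55 at E12.5, and 7.60, 7.83 and 8.07 at E16.5. The folds of both stages covered the same range, and all 8 E16.5 arrays lay below every fold array. Such a lack of overlap held for 10.1% of all genes between E16.5 and E12.5, and for 9.08% between E16.5 and E11.5. E12.5 minus E11.5 was -0.04 ± 0.09 (SE), with a 95% interval of -0.22 to 0.15 and a limma adjusted p of 0.879. Mycn fell by 0.49 ± 0.09 log2 units at E16.5 relative to E12.5 (limma adjusted p = 0.000134), and by 0.53 ± 0.09 relative to E11.5 (adjusted p = 4.93e-05). The 2 family members thus had ratios of 0.441 for Myc and 0.712 for Mycn between E16.5 and E12.5, and 0.677 and 0.695 between E16.5 and E11.5. Both E16.5 comparisons share the E16.5 arrays.

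Max, the obligate partner of all the other members, was the third gene to lie lower at E16.5. It spanned 11.64 to 12.02 at E11.5 with a median of 11.85, 11.71 to 12.08 at E12.5 with a median of 11.82, and 10.56 to 11.78 at E16.5 with a median of 11.54. Of the 8 E16.5 arrays, 6 lay below every E12.5 array and 4 below every E11.5 array. One of the 6, replicate 8, equals the lowest E12.5 array at 11.71 once rounded. Max was 0.03 ± 0.13 log2 units apart between E12.5 and E11.5 (SE; limma adjusted p = 0.937). It fell by 0.48 ± 0.13 at E16.5 relative to E12.5 (adjusted p = 0.00862) and by 0.45 ± 0.13 relative to E11.5 (adjusted p = 0.0119).

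Within E16.5, Max averaged 11.15 ± 0.50 in replicates 5 to 8 and 11.61 ± 0.24 in replicates 1 to 4 (SD, n = 4 each). The sets overlapped. Replicates 5, 6 and 7 had 11.38, 10.56 and 10.96, while replicate 8 had 11.71. Replicate 2 had 11.26, and replicates 1, 3 and 4 had 11.70 to 11.78. With replicates 1 to 4 alone, the E16.5 minus E12.5 difference was -0.25 (limma adjusted p = 0.0887) and the E16.5 minus E11.5 difference -0.22 (adjusted p = 0.125), so neither call remained. With replicates 5 to 8 alone they were -0.71 (adjusted p = 0.00132) and -0.68 (adjusted p = 0.00163). Mycn kept its call in both sets, at -0.40 with replicates 1 to 4 alone (adjusted p = 0.00877) and -0.58 with replicates 5 to 8 alone (adjusted p = 0.000328) relative to E12.5.

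No change in the 4 antagonists passed the test. Mxd1, an antagonist linked to differentiation, averaged 8.05 ± 0.20, 8.07 ± 0.20 and 7.98 ± 0.19 at E11.5, E12.5 and E16.5 (SD, n = 8 each). Mxd3, an antagonist found in dividing cells, averaged 7.86 ± 0.19, 7.84 ± 0.16 and 7.78 ± 0.09. Mxi1 averaged 8.27 ± 0.28, 8.30 ± 0.19 and 8.22 ± 0.20. The ranges of all of them overlapped between stages, in each of the 3 comparisons. For E16.5 minus E12.5, the 95% intervals of these 4 genes lay between -0.31 (the lower bound of Mxi1) and 0.32 log2 units (the upper bound of Mxd4).

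Mxd4 and Mxi1 differed within E16.5 rather than between stages. Mxd4, an antagonist linked to cells that have stopped dividing, averaged 8.63 ± 0.20, 8.61 ± 0.18 and 8.72 ± 0.24 over the 3 stages, and E16.5 minus E12.5 was 0.11 with a 95% interval of -0.10 to 0.32. Within E16.5 it lay between 8.44 and 8.62 in replicates 1 to 4 and between 8.65 and 9.15 in replicates 5 to 8. Mxi1 ran the other way, between 8.23 and 8.56 in replicates 1 to 4 and between 7.99 and 8.14 in replicates 5 to 8. Neither gene overlapped between the sets, which holds for 11.6% of all genes. With replicates 1 to 4 alone, E16.5 minus E12.5 changed sign for both, to -0.06 for Mxd4 (limma adjusted p = 0.757) and 0.07 for Mxi1 (adjusted p = 0.793).

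Mga, a Max partner that also carries a T-box DNA-binding domain and belongs to a Polycomb complex, had its lowest mean at E12.5. It spanned 9.37 to 9.92 at E11.5 with a median of 9.55, 9.44 to 9.61 at E12.5 with a median of 9.50, and 9.46 to 9.83 at E16.5 with a median of 9.74. Of the 8 E16.5 arrays, 6 lay above every E12.5 array, and 2, replicates 1 and 8, lay within the E12.5 range. E16.5 minus E12.5 was 0.18 ± 0.07 (SE; 95% interval 0.03 to 0.33), which did not pass the threshold (limma adjusted p = 0.0635). Over the 14 alternatives other than leaving out single arrays, the adjusted p ran from 0.0245 to 0.211, and 4 of them passed. E12.5 minus E11.5 was -0.08 ± 0.07 and E16.5 minus E11.5 was 0.10 ± 0.07 (adjusted p = 0.607 and 0.296).

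**Figure D3:**
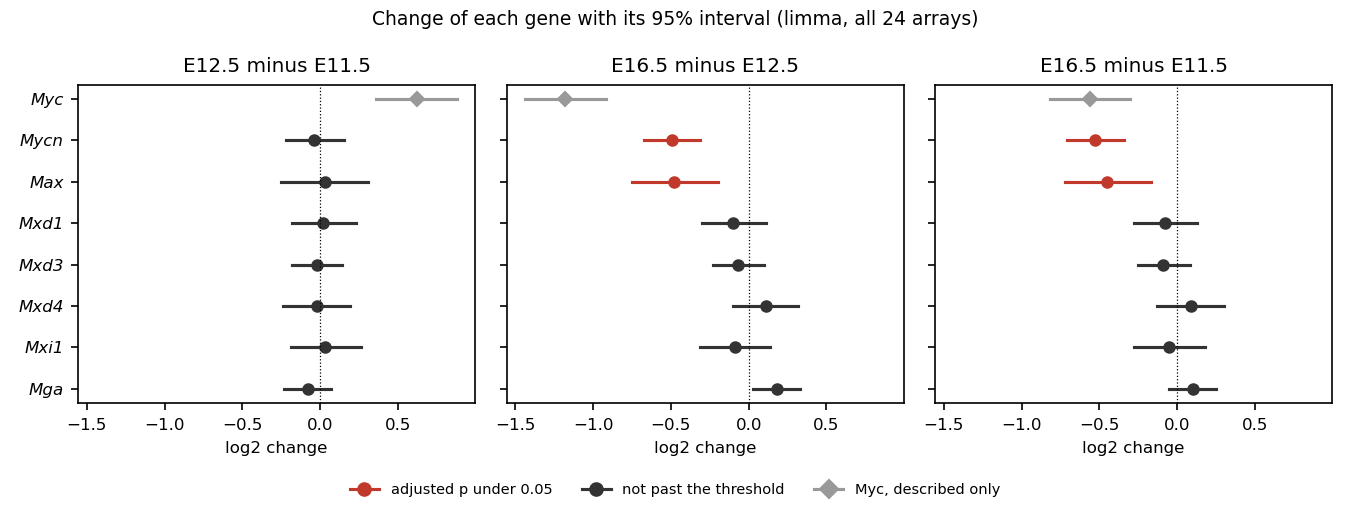
Points give the log2 change of each gene with its 95% interval from limma for the 3 comparisons, later stage minus earlier; red marks an adjusted p under 0.05, black a gene not past it, and grey diamonds Myc, which is described only. Mycn and Max are the red points in both E16.5 panels, and the interval of Mga at E16.5 minus E12.5 lies just above 0.

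Counted over the 7 members other than Myc, 0 passed between E12.5 and E11.5, where limma called 0.388% of all genes (75 of 19351, adjusted p under 0.05; 0.331% higher and 0.0568% lower). Of the genes called, 85.3% were higher with the values as deposited, 62.7% with arrays centred on the median and 51.6% with arrays centred on the 75th percentile. At an unadjusted p under 0.05, 0 of the 7 and 2789 of all genes passed. Between E16.5 and E12.5, 2 of 7 passed, Mycn and Max, both lower, where 27.1% of all genes were called and 15.6% were called lower. Between E16.5 and E11.5 the same 2 of 7 passed, both lower, where 33.5% were called and 19.6% were called lower. At an unadjusted p under 0.05, Mga joined them in the first of these comparisons, where 6918 of all genes passed. The members' share was near that of all genes called in each comparison. Their median log2 changes were -0.02, -0.09 and -0.08, beside -0.03, -0.02 and -0.08 over all genes.

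Of the other 7 genes of the network, 0 passed between E12.5 and E11.5, where 0.388% of all genes were called. In each E16.5 comparison 2 of the 7 passed, both lower. Over all genes 15.6% were called lower relative to E12.5 and 19.6% relative to E11.5. Mycl, the third Myc family member, averaged 7.82 ± 0.22 at E16.5 and 8.09 ± 0.17 at E12.5 (SD, n = 8 each), and fell by 0.26 ± 0.09 (limma adjusted p = 0.0287). Mnt averaged 8.28 ± 0.09 at E16.5 and 8.44 ± 0.06 at E12.5, and fell by 0.16 ± 0.05 (adjusted p = 0.0329). Both calls were weak: of 38 alternatives, 9 ended that of Mycl and 12 that of Mnt. Relative to E11.5, Mnt fell by 0.22 ± 0.05 (adjusted p = 0.00251) and Bmyc, a rodent gene related to the amino-terminal part of Myc, by 0.26 ± 0.09 (adjusted p = 0.0299), with 9 of 38 alternatives ending the call of Bmyc and 2 that of Mnt. Mlx, Mlxip and Mlxipl of the glucose-responsive arm and the rodent gene Mycs passed in no comparison. Mlxipl and Mycs lay below the array's median gene in most arrays of each stage.

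Genes in the wider neighbourhood of Myc and Mycn were looked at because Myc and its neighbour Pvt1, a long non-coding RNA, are often altered together in tumours. Pvt1 had a median of 7.34 at E12.5 and 7.12 at E11.5, and its means differed by 0.51 ± 0.19 (SE), which did not pass (limma adjusted p = 0.229). Its signal was low, above the array's median gene in 0 of 8 E11.5, 3 of 8 E12.5 and 1 of 8 E16.5 arrays. Its E12.5 mean was raised by replicates 6, 7 and 8 at 8.08, 8.51 and 7.69, while the other 5 arrays lay between 6.83 and 7.39. Those 3 arrays had Myc values of 9.77, 10.05 and 9.90, and neither of the 2 highest Myc values of the stage. Ddx1, an RNA helicase near Mycn, fell by 0.31 ± 0.08 at E16.5 relative to E12.5 (limma adjusted p = 0.00456). Asap1, a regulator of membrane traffic on the chromosome of Myc, fell by 0.32 ± 0.10 (adjusted p = 0.0241). The hepatocyte covariate ended both calls, and 5 of 38 alternatives ended that of Asap1.

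The genes whose pattern over the 24 arrays was most like Myc were ranked by the root mean square difference between values scaled to a mean of 0 and an SD of 1. Over 16956 named genes the median difference from Myc was 1.38. The nearest 5 were Fbl (0.49), a methyltransferase of ribosomal RNA, Birc5 (0.52), a mitosis and survival factor, Zc3h18 (0.53), an adaptor of nuclear RNA decay, Lyar (0.54), a nucleolar growth protein, and Pum3 (0.55), a nucleolar RNA-binding protein. Their E12.5 minus E11.5 differences were 0.26, 0.12, 0.06, 0.36 and 0.30, all smaller than the 0.62 of Myc. Among the members, Max ranked 894th and Mycn 1829th in likeness to Myc, and Mga ranked 16166th. The genes nearest to Mycn were Cbx2 (0.46), a Polycomb subunit, Yeats4 (0.48), a reader of acetylated histones, Wdr6 (0.49), a tRNA modification factor, Magi1 (0.52), a junction scaffold, and Midn (0.52), which aids protein breakdown. All points share the same arrays and the same stage steps.

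Genes that Myc is known to switch on were taken from lists assembled with earlier results of these data known, so their direction is not independent evidence. Between E12.5 and E11.5, where Myc lay higher, 0 genes of any such list passed limma's adjusted threshold. At an unadjusted p under 0.05, 10 of 26 ribosome biogenesis genes, 9 of 20 nucleotide, polyamine and iron genes and 6 of 9 glycolysis genes were higher. None of them were lower. Of all 19351 genes 2789 passed at that threshold, higher and lower together, and the higher ones were not counted apart. Of genes past the adjusted threshold, 85.3% were higher as deposited and 93.1% with the dimmest 50% of genes left out. With arrays centred on the 75th percentile 51.6% were higher. The part of this lean in the list counts was not tested. Of 26 ribosome biogenesis genes 23 had a difference above 0 (median 0.22), as did 18 of 20 nucleotide, polyamine and iron genes (median 0.22) and 9 of 9 glycolysis genes (median 0.36). The median over all genes was -0.03, and it was 0.04 with the dimmest 50% of genes left out. Of 14 cell cycle genes 10 lay above 0 (median 0.09), and of 18 proliferation markers 13 did (median 0.03), with 1 and 0 higher at the unadjusted threshold. Genes that Myc is known to hold down were also 4 of 11 higher and 0 lower at that threshold. So were 11 of 15 skeletal muscle markers and 10 of 11 hepatocyte markers, and their part in the other lists was not tested.

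Between E16.5 and E12.5 many of these genes were called lower. Over all genes, 27.1% were called in this comparison, 15.6% lower and the rest higher. The counts of each list below stand beside those shares. Of 26 ribosome biogenesis genes 21 fell and 0 rose (median -0.56, beside -0.02 over all genes). Fbl fell by 1.09 ± 0.12 log2 units (limma adjusted p = 8.33e-08), with a mean of 10.80 ± 0.31 at E16.5 and 11.89 ± 0.08 at E12.5. Nop56, its partner in the same particle, fell by 0.92 ± 0.10 (adjusted p = 6.73e-08), and Mybbp1a, a nucleolar protein, by 0.82 ± 0.10 (adjusted p = 1.23e-06). With E16.5 replicates 5 to 8 alone the count was 13 of 26.

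Of 20 nucleotide, polyamine and iron genes 12 fell and 1 rose (median -0.43). Umps, which completes pyrimidine synthesis, fell by 1.29 ± 0.14 (limma adjusted p = 1.15e-07), and Srm, which makes spermidine, by 1.06 ± 0.15 (adjusted p = 4.26e-06). The gene that rose was Tfrc, the transferrin receptor, by 1.07 ± 0.22 (adjusted p = 0.000513), a call that was lost with the hepatocyte mean as a covariate. Erythroid cells carry much Tfrc, and of 10 erythroid markers 3 fell and 0 rose (median -0.05). The number that fell ran from 3 to 5 over the alternatives, and the part of this list in the Tfrc value was not tested.

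Of 14 cell cycle genes 11 fell and 0 rose (median -0.75), and of 18 proliferation markers 18 fell (median -0.79). Ccnd2, a D cyclin, fell by 1.48 ± 0.08 (limma adjusted p = 1.61e-12), and its kinase partner Cdk4 by 1.31 ± 0.08 (adjusted p = 1.22e-11). Cdca7, a chromatin protein known to respond to Myc, fell by 1.53 ± 0.21 (adjusted p = 3.49e-06) and Cdc25a, a phosphatase that starts S phase, by 1.17 ± 0.14 (adjusted p = 2.72e-07). Among the proliferation markers, the kinetochore kinase Bub1 fell by 1.38 ± 0.18 (adjusted p = 1.43e-06) and Mcm4 of the replicative helicase by 1.22 ± 0.18 (adjusted p = 9.05e-06). The mean of the proliferation list lay between 9.13 and 9.87 per array at E16.5 and between 10.21 and 10.54 at E12.5, and its part in the other lists was not tested.

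Glycolysis genes went in both directions, with 5 of 9 higher and 2 lower (median 0.29). Pfkm, the muscle form of phosphofructokinase, rose by 2.30 ± 0.20 (limma adjusted p = 3.99e-09) and Tpi1, the triose phosphate isomerase, by 1.07 ± 0.10 (adjusted p = 1.59e-08). Slc2a1, the widespread glucose transporter, fell by 0.82 ± 0.15 (adjusted p = 0.000181) and Pgam1, a phosphoglycerate mutase, by 0.59 ± 0.08 (adjusted p = 7.4e-06). The count of higher genes was 2 with E16.5 replicates 5 to 8 alone and 2 with the hepatocyte covariate. It was 3 after quantile normalisation again, 3 without E12.5 replicates 2 and 3, and 3 to 6 with single arrays left out. Muscle markers moved with this list, and their part in it was not tested.

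Of 11 genes that Myc is known to hold down, 4 rose and 0 fell (median 0.19), while 7 of 22 immediate early genes rose and 1 fell (median 0.15). Ndrg2, a gene of differentiated cells, rose by 2.32 ± 0.45 (limma adjusted p = 0.000302), with a mean of 11.29 ± 1.17 at E16.5 and 8.97 ± 1.08 at E12.5. Ndrg1, a related gene, rose by 0.79 ± 0.11 (adjusted p = 5.13e-06) and Cdkn1b, the cell cycle inhibitor p27, by 0.51 ± 0.16 (adjusted p = 0.0163), a call that 3 of 38 alternatives ended. With E16.5 replicates 5 to 8 alone 2 of the 11 rose, and Ndrg2 was not among them. Among the immediate early genes Ier3 rose by 1.06 ± 0.14 (adjusted p = 2.23e-06) and Btg2, which slows division, by 0.93 ± 0.16 (adjusted p = 6.39e-05). With E16.5 replicates 5 to 8 alone 2 immediate early genes fell, and with replicates 1 to 4 alone 0 did. With the dimmest 50% of genes left out, 4 immediate early genes rose, counted only over those that remained. A gene removed by that filter was not tested there. The mean of that list was 7.75 to 8.11 at E16.5 and 7.61 to 7.77 at E12.5.

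**Figure D4:**
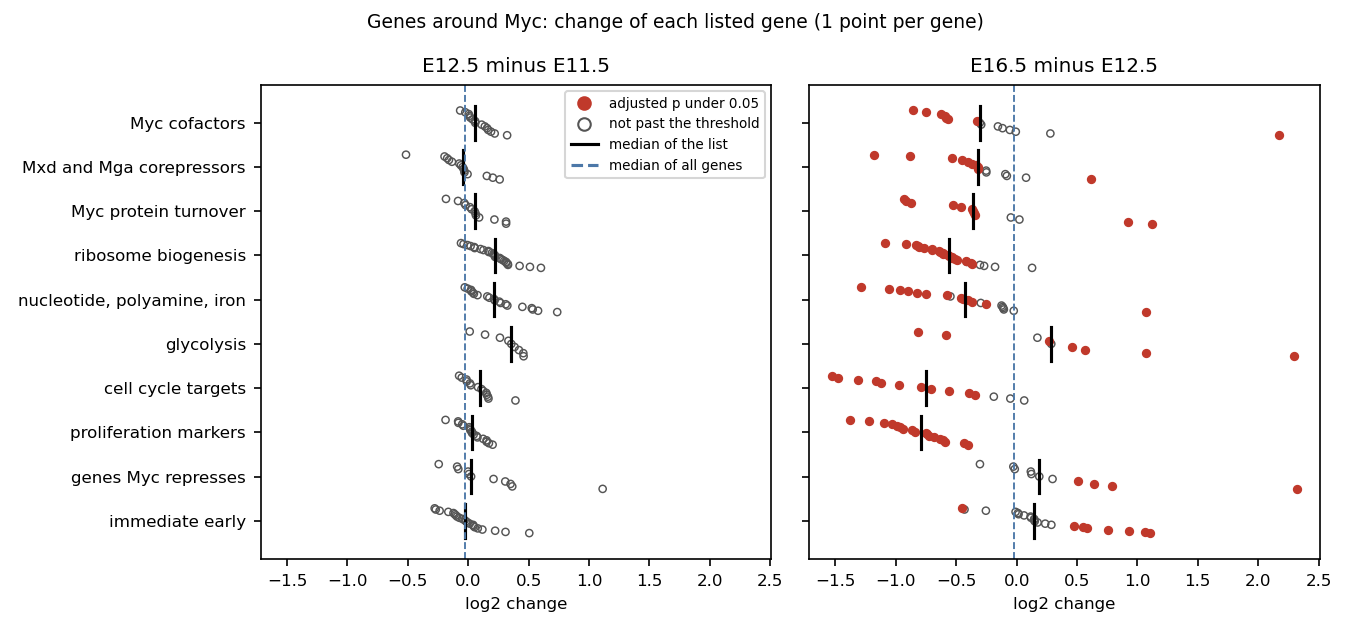
Each point is 1 gene of a list around Myc, placed by its log2 change for E12.5 minus E11.5 (left) and E16.5 minus E12.5 (right); red points passed an adjusted p under 0.05, the black bar is the median of the list and the dashed line the median of all genes. No point is red on the left, and on the right the ribosome, nucleotide, cell cycle and proliferation lists lie mostly below 0, with medians of -0.56, -0.43, -0.75 and -0.79.

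The proteins that work with Myc and its antagonists were described in the same comparison. There 27.1% of all genes were called, 15.6% lower and the rest higher. Of 15 Myc cofactors 7 fell and 1 rose at E16.5 relative to E12.5 (median -0.30), and with the hepatocyte covariate 4 fell. Ruvbl1 and Ruvbl2, helicases that Myc recruits to chromatin, fell by 0.85 ± 0.11 and 0.62 ± 0.10 (limma adjusted p = 1.43e-06 and 4.76e-05). Bin1 rose by 2.18 ± 0.14 (adjusted p = 8.72e-12), with 11.70 ± 0.25 at E16.5 and 9.53 ± 0.39 at E12.5 (SD, n = 8 each). Bin1 binds Myc and is also a membrane-bending protein of muscle tubules.

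Of 15 corepressor genes of the Mxd and Mga complexes 9 fell and 1 rose (median -0.32). Hdac1, a histone deacetylase, fell by 0.89 ± 0.10 (limma adjusted p = 1.78e-07), Sin3a, the scaffold that Mxd proteins bind, by 0.54 ± 0.10 (adjusted p = 0.00011), and Pcgf6, the Polycomb partner of Mga, by 1.18 ± 0.21 (adjusted p = 0.00011). The rise of E2f6, another partner of Mga, by 0.62 ± 0.23 (adjusted p = 0.0474) was lost in 18 of 38 alternatives. With E16.5 replicates 5 to 8 alone 5 of the 15 fell.

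Of 13 genes that set the life of the Myc protein 9 fell and 2 rose (median -0.37). The rising genes were Usp28, a deubiquitinase that spares Myc, by 1.12 ± 0.15 (limma adjusted p = 2.66e-06), and Ppp2r5a, a phosphatase subunit that favours its loss, by 0.92 ± 0.18 (adjusted p = 0.000278). Aurka, a mitotic kinase that shields Mycn from breakdown, fell by 0.93 ± 0.17 (adjusted p = 0.000153). Trim32, a ubiquitin ligase reported to act on Myc, fell by 0.91 ± 0.21 (adjusted p = 0.00174). The call of Ppp2r5a was lost with the hepatocyte covariate and that of Trim32 with E16.5 replicates 5 to 8 alone. With the same replicates alone 5 of the 13 fell, and neither Myc protein nor its turnover was measured here.

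The third comparison, E16.5 against E11.5, shares its E16.5 arrays with the second. Of the ribosome list 14 of 26 fell (median -0.32), of the nucleotide list 8 of 20 (median -0.24) and of the cell cycle list 9 of 14 (median -0.67). Over all genes the median was -0.08, with 19.6% called lower and 13.8% higher. In the nucleotide list 1 gene rose, Tfrc, by 1.80 ± 0.22 (limma adjusted p = 4.37e-07), a call lost with the hepatocyte covariate. Proliferation markers fell in 18 of 18 (median -0.75). In the glycolysis list 7 of 9 rose and 1 fell (median 0.60). Among those that rose were Hk2, a hexokinase of muscle, by 1.02 ± 0.18 (limma adjusted p = 8.65e-05) and Ldha, a lactate dehydrogenase, by 0.84 ± 0.14 (adjusted p = 2.61e-05). The Ldha call was lost with the hepatocyte mean as a covariate. In the list of genes that Myc holds down 6 of 11 rose and 1 fell (median 0.33). With that covariate 5 ribosome, 5 nucleotide and 5 cell cycle genes fell, and 3 glycolysis genes and 2 of those that Myc holds down rose. With E16.5 replicates 5 to 8 alone 9 ribosome genes fell, and of the list of genes that Myc holds down 0 fell.

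E-boxes were set against the calls over all measured genes with a promoter window. Between E16.5 and E12.5, 19.1% of the 1469 genes with CACGTG were called lower, against 15.6% of the 13967 without it, and 10.1% against 11.4% were called higher. Between E16.5 and E11.5 the shares were 21.6% against 19.8% lower and 14.2% against 13.9% higher. Between E12.5 and E11.5, 0.34% with it and 0.308% without it were called higher. These shares are descriptions of all genes and carry no test. Stretches from 3 listed genes with upstream boxes show how the string sits in promoters whose genes went in different directions: Cdk4 and Tyms, the thymidylate synthase, which fell by 1.31 and 0.90 log2 units at E16.5 relative to E12.5, and Ldha, which rose by 0.46 ± 0.14 (limma adjusted p = 0.0122). The Ldha call was lost with E16.5 replicates 5 to 8 alone and with the hepatocyte covariate. The 3 genes were chosen after their values were seen. The Cdk4 stretch lies on chr10:127063392-127063447 (plus strand) and holds 2 boxes, the Tyms stretch on chr5:30073656-30073711 (minus) and the Ldha stretch on chr7:46845634-46845689 (plus), all in GRCm38.p6.
Cdk4: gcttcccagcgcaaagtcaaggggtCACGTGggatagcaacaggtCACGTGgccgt
Tyms: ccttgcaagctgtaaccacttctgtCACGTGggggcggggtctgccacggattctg
Ldha: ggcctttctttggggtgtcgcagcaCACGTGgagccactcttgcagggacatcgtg

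With the hepatocyte mean as a covariate, which runs with stage, the E16.5 minus E11.5 difference was -0.28 for Mycn (limma adjusted p = 0.473), -0.59 for Max (adjusted p = 0.272) and -0.84 for Myc, and 0 of 7 members passed. For E16.5 minus E12.5 the same covariate left both calls, and the Myc difference was -1.32. The hepatocyte list could not be separated from stage between E11.5 and either later stage, since its ranges there did not overlap.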

How the data were processed

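RNA of laser-cut tissue was amplified, labelled with biotin and hybridised, 1 array per sample, per the labels' protocols. The authors deposited log2 intensities. Per the submitters' processing notes, the tools were Affymetrix Expression Console 1.1, R 2.9.2 and RMA, which pulls the arrays to a common distribution and can hide a global shift. The log2 scale was read from the values, which run from 2.56 to 14.1. Array medians were 7.44 to 7.55, and the number of arrays limits precision.

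Of 24200 probe sets, 20760 had 1 gene symbol in the platform annotation, 1140 had several and 2300 had none. Where a gene had more than 1 (804 genes), its brightest probe set on average stood for it, giving 19351 genes. A linear model with a mean for each stage was fitted to all 24 arrays (limma 3.58.1 under R 4.3.3, moderated by eBayes). Tests were two-sided, with Benjamini-Hochberg adjustment over all genes and a threshold of 0.05. On simulated data for E12.5 minus E11.5, 65% of 100 genes changed by 0.5 log2 units and 92% of 100 changed by 1 were recovered, with 5 false calls. The simulated noise was normal and independent between genes and arrays, so it lacks the differences that many genes of these arrays share. The figures therefore check the fit and do not give its error rate on the real arrays.

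The members and all 24 gene lists were chosen with earlier results of these data known, and 24 of 310 list genes had no single-gene probe set. Named were all members, the measured wider network and locus genes, up to 4 called genes of largest change per list and comparison, and the 5 genes most like Myc and Mycn. Replicate numbers did not pair the samples: correlations of same-numbered samples' deviations ran from -0.28 to 0.09. Promoter windows are RefSeq's (GRCm38.p6). The files name no genome build for gene positions, so coordinates are given for promoter stretches alone. Neighbouring genes were chosen from general knowledge.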

Additional observations from a re-analysis of the deposited data

Results flagged for a closer look

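E16.5 replicate 8 had 9.58 for Myc, against 8.32 to 8.86 in the other 7 arrays of its stage, a gap of 0.572 of the group's range, which is a description since Myc was chosen by its values. Of the 7 members other than Myc, each at 3 stages, 1 group held a value far from the rest, where chance gives about 1 in 20. E12.5 replicate 2 had 7.48 for Mxd3, against 7.77 to 7.99 in the other 7, a gap of 0.565 of the range. That array also had the highest hepatocyte mean (11.87) and erythroid mean (10.68) of its stage, and their part in the Mxd3 value was not tested.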

How the results depend on the processing

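Single members kept their direction and call except as follows. Over 38 alternatives, 0 of 7 members passed between E12.5 and E11.5. Genes changed there numbered 75, and 9 with only these stages fitted, 43 with the replicate block, 49 after quantile normalisation again, 120 with array weights, 32 with E16.5 replicates 5 to 8 alone, 34 with replicates 1 to 4 alone, and 26 to 151 with single arrays left out (26 without E12.5 replicate 1, 151 without E12.5 replicate 2, 137 without E11.5 replicate 4). For E16.5 minus E12.5 the count of 5241 was 3349 with the hepatocyte covariate, 3479 with replicates 5 to 8 alone and 4876 to 5328 with single arrays left out. For E16.5 minus E11.5 the count of 6479 was 1641, 4265 and 6018 to 7163. Members passing at E16.5 minus E12.5 numbered 1 with replicates 1 to 4 alone and 2 to 3 with single arrays left out, and at E16.5 minus E11.5 0 with the hepatocyte covariate and 1 with replicates 1 to 4 alone. The cause was not tested.

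Uncalled changes near 0 changed sign. For E12.5 minus E11.5, quantile normalisation gave -0.02 for Max, -0.04 for Mxd1 and -0.04 for Mxi1. Median centring gave -0.001 for Max and -0.01 for Mxd1, and 75th-percentile centring -0.04 for Max, -0.05 for Mxd1 and -0.04 for Mxi1. Array weights gave 0.004 for Mxd4 and -0.01 for Mxi1. The hepatocyte covariate gave 0.09 for Mycn, -0.05 for Max, 0.10 for Mxd3 and 0.06 for Mxd4. Leaving out E12.5 replicates 2 and 3 gave 0.03 for Mxd3 and 0.03 for Mxd4. With single arrays left out the ranges were -0.07 to 0.01 for Mycn, -0.001 to 0.06 for Max, -0.03 to 0.07 for Mxd1, -0.06 to 0.03 for Mxd3, -0.08 to 0.01 for Mxd4 and -0.03 to 0.10 for Mxi1. For E16.5 minus E12.5 the hepatocyte covariate gave 0.05 for Mxd1 and 0.06 for Mxd3, and replicates 1 to 4 alone -0.06 for Mxd4 and 0.07 for Mxi1. For E16.5 minus E11.5 the covariate gave 0.23 for Mxd1 and 0.16 for Mxd3, replicates 1 to 4 alone -0.09 for Mxd4, 0.10 for Mxi1 and -0.01 for Pvt1, and single arrays left out -0.11 to 0.01 for Mxi1.

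Mga at E16.5 minus E12.5 passed with only these stages fitted (adjusted p = 0.0272), quantile normalisation (0.0271), 75th-percentile centring (0.0245) and array weights (0.0329), and without E11.5 replicate 4 or 5 or E16.5 replicate 1 or 8 (limma adjusted p = 0.0477, 0.0363, 0.0277 and 0.0415). Centring on the 75th percentile gave 51.6% of calls as higher for E12.5 minus E11.5, where the values as deposited gave 85.3% and median centring 62.7%, and 50.9% for E16.5 minus E12.5, where they gave 42.4%. Calls were also counted for the network and locus genes and the up to 4 genes per list and comparison, without the members. Of these, 32 of 44 at E16.5 minus E12.5 and 23 of 42 at E16.5 minus E11.5 kept their call under every alternative that held them. The replicate block ended no member's call, and the numbers do not pair the samples (0, 1 and 1 of the same-numbered pairs matched best).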
